A study of Canis lupus familiaris with 6 samples.

Results

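The genes described here build adherens junctions and desmosomes, the contacts that hold neighbouring epithelial cells together. They were the cadherins CDH1, CDH2, CDH3, CDH6 and CDH16, the catenins CTNNA1, CTNNB1 and CTNND1, plakoglobin (JUP) and desmoplakin (DSP). Every non-control probe that the array's gene name column gave to one of these 10 genes was taken, which found 23 probes for 8 genes among 43603 probes. CDH6 and CTNND1 had no probe under their own symbol and are treated separately. Of the 23 probes, 22 were tested, because in at least 1 group all 3 arrays read them well above background, as were 26528 probes in all. The remaining member, the CDH16 probe at transcript base 496, was not well above background on any of the 6 arrays.

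The cells were MDCK-pTR GFP-RasV12 cells, a dog kidney tubule epithelial line in which tetracycline switches on GFP fused to RasV12, an oncogenic Ras. All samples had 24 h of tetracycline and were sorted by their GFP from dishes coated with collagen type I. RasV12 cells cultured alone (3 samples) were compared with RasV12 cells that had been grown mixed with normal MDCK cells (3 samples), with 1 single-colour Agilent canine array per sample. The comparison asks how RasV12 cells differ when normal neighbours surround them. The labels give 10 normal cells to each RasV12 cell for mixed replicates 1 and 3 but 100 for mixed replicate 2. The extraction text names a line with mCherry-β-catenin, which neither the sample titles nor the paper's description of these cultures gives. Each group lay on 1 slide of its own, so an effect of the slide cannot be told apart from one of the culture. The share of spots well above background was 60.8% to 66.4% on the 6 arrays, and no spot was saturated. In bulk RNA, fewer cells carrying a transcript and less of it per cell cannot be told apart.

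In an adherens junction, cadherins of neighbouring cells bind each other in the presence of calcium. Their inner tails hold β-catenin or plakoglobin, and α-catenin ties that complex to actin filaments. Desmosomes use the desmosomal cadherins, desmogleins and desmocollins, which plakoglobin, plakophilins and desmoplakin tie to keratin filaments. β-Catenin that is not held at the membrane also acts with TCF/LEF factors in the nucleus, and MDCK cells are a standard model of cadherin adhesion.

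The probes are DNA strands of 60 bases, and a gene is read only where its probes lie. The following 6 sequences are shown because the CDH2 and CDH6 results turn on them, and because CDH1, CTNNB1 and DSP are the standard cadherin, its catenin and the desmosome's plaque protein. They were taken from the array files and are written 5′ to 3′ in lower case, with no stretch singled out. Coordinates are on the dog assembly canFam3, and the array files give no exon or UTR for them.
CDH1, probe A_11_P053126, transcript base 312, chr5:80784502-80784561, minus strand: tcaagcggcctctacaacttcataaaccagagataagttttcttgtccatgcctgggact
CDH2, probe A_11_P100091, transcript base 206, chr7:60766532-60766591, plus strand: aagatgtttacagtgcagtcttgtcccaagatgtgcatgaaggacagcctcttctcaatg
CDH2, probe A_11_P190553, transcript base 1924, chr7:60915486-60915545, plus strand: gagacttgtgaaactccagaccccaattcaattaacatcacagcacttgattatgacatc
CDH6, probe A_11_P105391, transcript base 2065, chr4:75951977-75952036, minus strand: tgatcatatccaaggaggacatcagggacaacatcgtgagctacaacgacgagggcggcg
CTNNB1, probe A_11_P195993, transcript base 919, chr23:10561492-10562693, plus strand: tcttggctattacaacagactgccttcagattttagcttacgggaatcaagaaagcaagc
DSP, probe A_11_P056201, transcript base 8569, chr35:7523977-7524036, plus strand: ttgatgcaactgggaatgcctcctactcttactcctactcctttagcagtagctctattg

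The CTNNB1 probe at base 919 covers 1202 bases of the genome, so this 60-base probe spans at least 1 intron. The CDH2 probes lie far apart on the gene, from chr7:60766532 for the probe at base 206 to chr7:60950476 for the probe at base 3941.

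Among the members, N-cadherin (CDH2) was lower in RasV12 cells from mixed culture at its probes at bases 206 and 3941, and β-catenin (CTNNB1) at 1 of 4. The CDH2 probe at base 1924 also passed the test. It was tested only because the cells alone read it well above background, and only a bound holds for it. No tested probe of CDH1, CDH3, CDH16, CTNNA1, JUP or DSP passed the test. In all, 4 of the 22 tested member probes were called, at a limma adjusted p under 0.05, and all 4 were lower. With only probes well above background on all arrays, 3 of 21 member probes were called, against 3039 of 25529 probes in all. Over all tested probes 11.2% were called, 5.73% lower and 5.5% higher. In 8 member probes every mixed value lay below every value of the cells alone, and in none did every mixed value lie above. Over all tested probes those shares were 19.4% and 17.8%. The 8 include the CDH2 probe at base 1924, whose mixed values were not well above background on any mixed array. The median difference of the 22 probes was -0.15 on the log2 scale, against -0.0037 over all tested probes, and 20 of the 22 differences were negative against 13426 of 26528. With only probes well above background on all arrays the median of the 21 member probes was also -0.15. The 22 probes come from 8 genes, and probes of the same gene are not independent. JUP alone had 6 of them, with differences from -0.03 to 0.05 and no call. Values throughout are log2 intensities minus the log2 of each array's 75th percentile, so that 0 is the intensity below which 75% of probes lie, and differences are mixed culture minus RasV12 cells alone on this scale.

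**Figure D1:**
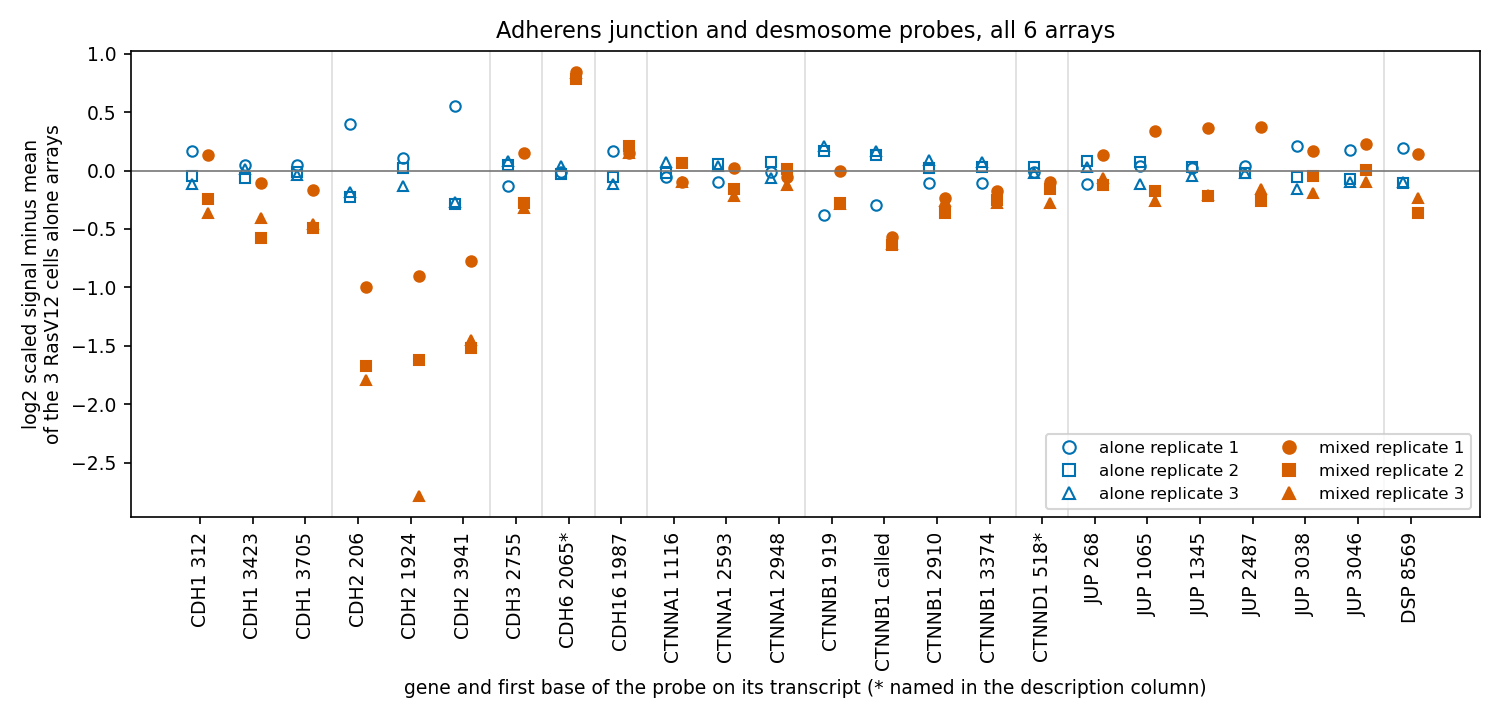
Log2 scaled signal of each tested probe on each of the 6 arrays, minus the mean of the 3 arrays of RasV12 cells alone (y axis), by gene and by the first transcript base of the probe (x axis; the called CTNNB1 probe is named so). Open blue symbols are cells cultured alone, filled orange symbols are mixed culture, and the symbol's shape gives the replicate number. At the CDH2 probes at bases 206 and 3941 all mixed values lie below all values of the cells alone, and at the CDH6 probe all lie above. The mixed values drawn for CDH2 at base 1924 were not well above background.

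N-cadherin, the cadherin of neural and mesenchymal cells, gave the largest differences of the members. At the probe starting at base 3941, the 3 arrays of cells alone read 0.94, 0.11 and 0.12 and the 3 mixed arrays -0.39, -1.13 and -1.06. The groups did not overlap, and within each group replicate 1 was the highest. The difference was -1.25 with an SE of 0.29 (n = 3 per group, limma adjusted p = 0.043), a level 2.38-fold lower in mixed culture. Arrays of the same replicate number differed by -1.33, -1.23 and -1.18, a narrower range than that of the single values.

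The CDH2 probe at base 206 read -2.66, -3.28 and -3.24 in cells alone against -4.06, -4.73 and -4.85 in mixed culture. Again no mixed value reached the lowest value of the cells alone. The difference was -1.49 ± 0.25 (SE, limma adjusted p = 0.023), or 2.80-fold lower, and only 30 of the 26528 tested probes had a more negative one. The last CDH2 probe, at base 1924, was well above background in all of the cells alone, at -5.06, -5.14 and -5.29, but on none of the mixed arrays. It was therefore at least 1.34-fold lower in mixed culture, the bound being set by the dimmest signal still well above background on each mixed array. Its limma adjusted p of 0.048 rests on mixed values not well above background, in a probe tested only through the cells alone. Each CDH2 call held when the replicate number was a block in the fit (adjusted p 0.027, 0.027 and 0.043). None held when cells alone replicate 2 or 3 or mixed replicate 2 or 3 was left out (adjusted p 0.083 to 0.143). Those fits called only 7 to 24 of all tested probes, against 2977 as reported. The call at base 1924 was also lost without cells alone replicate 1 (adjusted p = 0.071). The differences at bases 206 and 3941 stayed between -1.73 and -0.97 whichever array was left out. Under the normexp background correction the difference at base 206 was -0.59 and at base 1924 -0.22, the latter without a call, and quantile normalization also gave no call at base 1924 (adjusted p = 0.065).

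CDH6 (K-cadherin), a cadherin of the developing and adult kidney tubule, had no probe under its symbol, but the array's description column gives its name to the probe shown above. That probe was looked up after values had been seen and is outside the counts given for the members. It read -3.62, -3.64 and -3.57 in cells alone and -2.76, -2.82 and -2.77 in mixed culture. All mixed values lay above all values of the cells alone, with an SD of 0.035 and 0.032 in the 2 groups. The difference was 0.82 ± 0.066 (SE, n = 3 per group, limma adjusted p = 0.010), 1.77-fold higher in mixed culture, and 26098 of the tested probes had a lower difference. Without cells alone replicate 2 or 3 or mixed replicate 2 or 3, the difference was 0.81 to 0.84 with an adjusted p of 0.051 to 0.073, so the call did not hold. Those fits called only 7 to 24 of all tested probes. Under the normexp background correction the difference was 0.47 and was called (adjusted p = 0.0055).

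**Figure D2:**
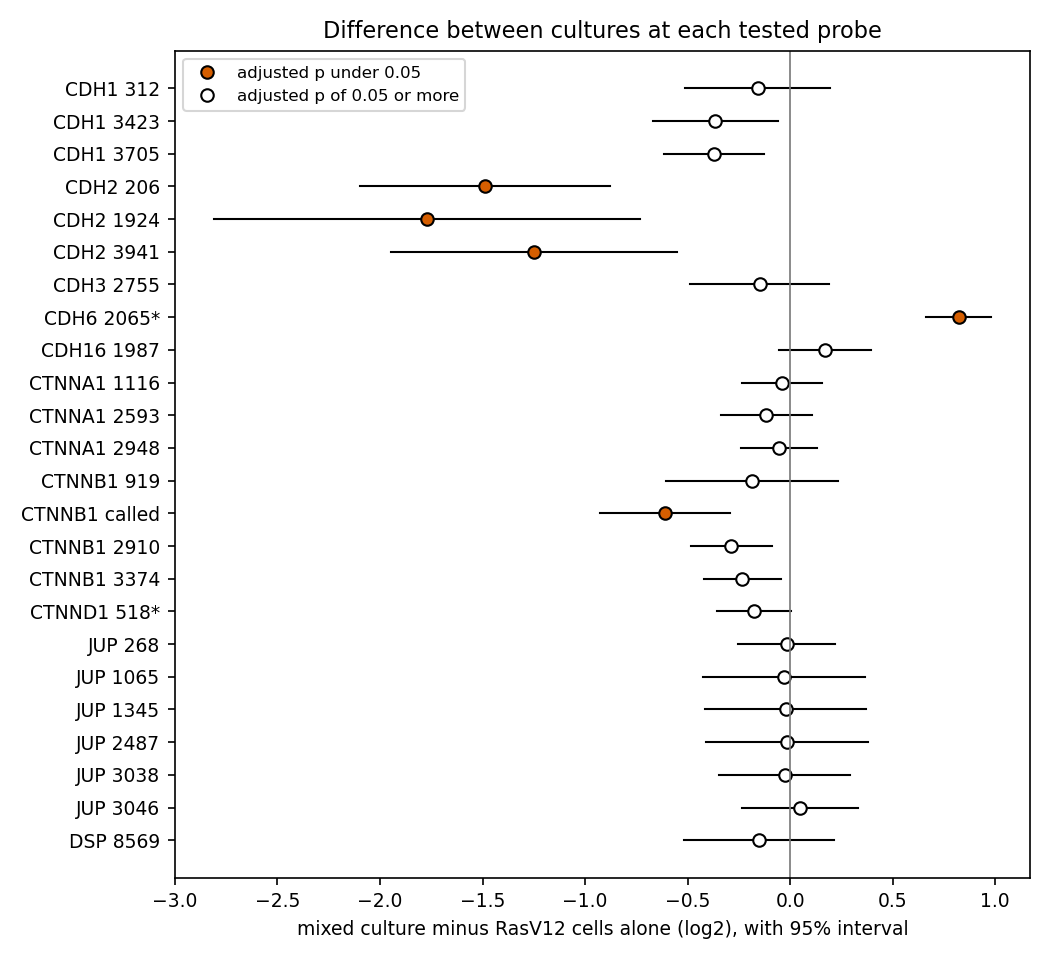
Difference between mixed culture and RasV12 cells alone (log2, x axis) for each tested probe, with its 95% interval from the moderated limma fit. Filled points have an adjusted p under 0.05. The intervals of CDH2 at bases 206 and 3941 lie wholly below -0.55, the CDH6 interval wholly above 0.66, and the 6 JUP intervals all include 0.

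E-cadherin (CDH1), the main cadherin of epithelia and the founding member of the family, had 3 probes, none of them called. The probe at base 3705 read 4.27, 4.20 and 4.18 in cells alone and 4.05, 3.73 and 3.76 in mixed culture. The groups did not overlap, and mixed replicate 1 lay nearest the cells alone. The difference was -0.37 with a 95% interval of -0.62 to -0.12 (n = 3 per group, limma adjusted p = 0.065), 1.29-fold lower in mixed culture. The probe at base 3423 of the same transcript gave -0.36 (-0.67 to -0.06, limma adjusted p = 0.11), again with groups that did not overlap. The probe at base 312, near the other end, gave -0.16 (-0.51 to 0.20, limma adjusted p = 0.51), and there the groups overlapped. Without mixed replicate 1 the probes at bases 3705 and 3423 were both called, at -0.47 and -0.49, and under the normexp correction the probe at base 3705 was called at -0.34.

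P-cadherin (CDH3), which lies beside CDH1 on the same chromosome, read -2.57, -2.38 and -2.35 in cells alone and -2.28, -2.71 and -2.75 in mixed culture. Mixed replicate 1 was the highest of the 6 arrays and mixed replicate 3 the lowest, and the difference was -0.15 (95% interval -0.49 to 0.19, n = 3 per group, limma adjusted p = 0.52). CDH16 (Ksp-cadherin), a cadherin that marks kidney tubule epithelium, was measured at base 1987 and read -0.76, -0.98 and -1.05 against -0.78, -0.72 and -0.78. Its difference of 0.17 (-0.05 to 0.39, limma adjusted p = 0.26) was the only positive one among the tested probes of the 4 member cadherins found by symbol, and it was called, at 0.25, only when cells alone replicate 1 was left out.

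β-Catenin (CTNNB1) links classical cadherins to α-catenin and is the transcriptional partner of TCF/LEF factors. Its called probe read 2.20, 2.63 and 2.67 in cells alone and 1.93, 1.87 and 1.87 in mixed culture. The groups did not overlap, and the mixed arrays had an SD of 0.038 against 0.26 in cells alone, where replicate 1 was low. The difference was -0.61 ± 0.13 (SE, n = 3 per group, limma adjusted p = 0.037), 1.53-fold lower in mixed culture. With the replicate number as a block the same difference had a limma adjusted p of 0.053 and was not called, while 10.7% of all tested probes were. Scaling to the spike-in probes gave -0.77 without a call (adjusted p = 0.070). The call was also lost without cells alone replicate 2 or 3 or any of the mixed replicates (adjusted p 0.078 to 0.130), with differences from -0.63 to -0.53. Of all tested probes, 2009 were called without mixed replicate 1 and only 7 to 24 without each of those other arrays.

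The other CTNNB1 probes gave smaller values that did not pass the test. At base 2910 the arrays read 3.80, 3.93 and 3.997 against 3.68, 3.55 and 3.65, a difference of -0.29 (95% interval -0.48 to -0.09, n = 3 per group, limma adjusted p = 0.073). At base 3374 they read 6.52, 6.65 and 6.70 against 6.45, 6.37 and 6.35, a difference of -0.23 (-0.42 to -0.05, limma adjusted p = 0.10). At both of these probes the groups did not overlap. At base 919 they read -1.08, -0.53 and -0.49 against -0.70, -0.98 and -0.98, and the difference was -0.19 (-0.61 to 0.23, limma adjusted p = 0.51). There cells alone replicate 1 was the lowest of all 6 arrays, so the groups overlapped. The 4 probes thus had the same sign but differed in size, and the difference between them was not tested. Whether any of them also reads RNA of a β-catenin transgene, which the extraction text names, was not tested.

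**Figure D3:**
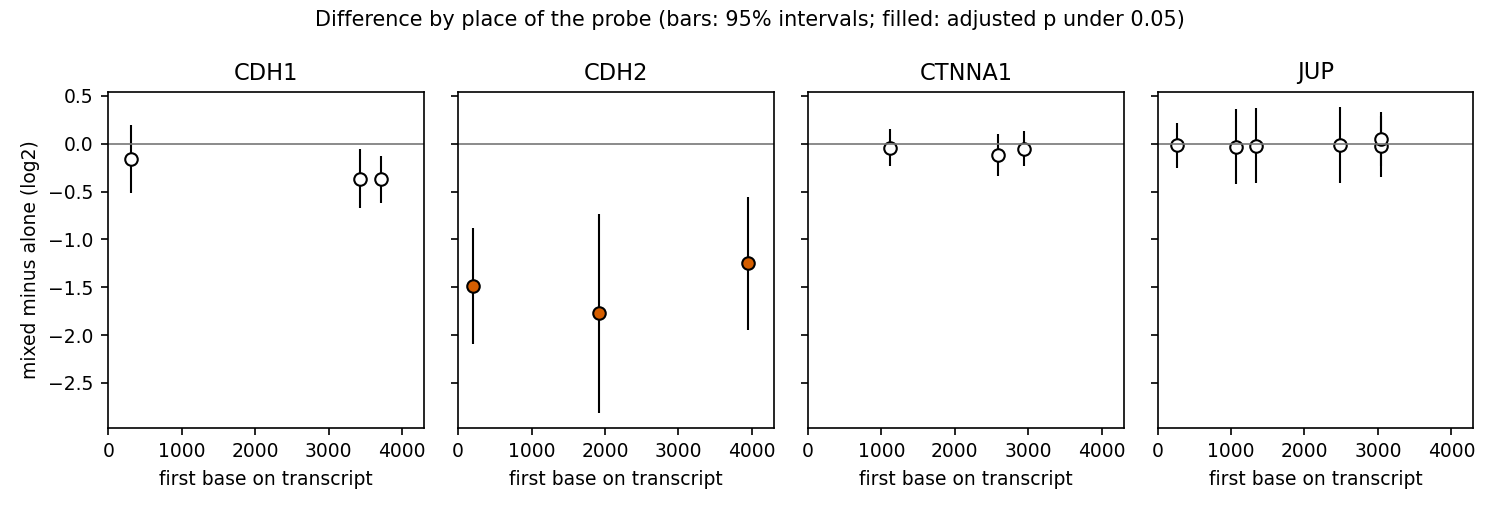
Difference between mixed culture and RasV12 cells alone (log2, y axis) against the first base of the probe on its transcript (x axis) for CDH1, CDH2, CTNNA1 and JUP, with 95% intervals. Filled points have an adjusted p under 0.05. The CDH2 points at bases 206 and 3941 lie at -1.49 and -1.25 (the point at base 1924 is a measured value for which only a bound holds), the JUP points between -0.03 and 0.05, and the CTNNA1 points between -0.12 and -0.04.

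α-Catenin (CTNNA1), the actin-binding partner of β-catenin, had 3 probes with overlapping groups. Its probe at base 2948 read 3.22, 3.31 and 3.17 in cells alone and 3.18, 3.25 and 3.11 in mixed culture, a difference of -0.05 (95% interval -0.24 to 0.13, n = 3 per group, limma adjusted p = 0.67). The probes at bases 1116 and 2593 gave -0.04 (-0.24 to 0.15) and -0.12 (-0.34 to 0.10), with limma adjusted p of 0.77 and 0.43. CTNND1, a catenin that binds the cadherin tail near the membrane and keeps cadherin at the surface, was named for a probe only in the description column. That probe, at base 518 of its transcript, read 2.58, 2.62 and 2.58 against 2.49, 2.44 and 2.32. The groups did not overlap, and the difference was -0.18 (-0.36 to 0.0025, limma adjusted p = 0.16).

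Plakoglobin (JUP), the catenin found in adherens junctions and desmosomes alike, had 6 probes and none passed the test. Their differences ran from -0.03 to 0.05, and their 95% intervals lay within -0.42 to 0.38 (limma adjusted p 0.81 to 0.96 over the 6). The probe at base 3046 read 6.49, 6.24 and 6.22 in cells alone and 6.55, 6.33 and 6.22 in mixed culture. It shares 52 bases with the probe at base 3038, so these are not separate readings of the gene. At the 4 probes from base 268 to base 2487 mixed replicate 1 was above replicates 2 and 3. At base 2487, for example, the mixed arrays read 0.61, -0.03 and 0.08 around cells alone at 0.28, 0.21 and 0.21.

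Desmoplakin (DSP), which ties the desmosomal plaque to keratin filaments, had 1 probe. It read 2.36, 2.06 and 2.07 in cells alone and 2.31, 1.80 and 1.93 in mixed culture, with replicate 1 the highest in each group. The groups overlapped, and the difference was -0.15 (95% interval -0.52 to 0.21, n = 3 per group, limma adjusted p = 0.54).

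The other genes of these junctions were taken from lists of textbook components. They had 54 tested probes for 29 genes, of which 2 probes were called higher and 7 lower, 9 in all, against 5.5% higher and 5.73% lower over all tested probes. Their median difference was -0.10. Most of the lower calls were of adherens junction proteins, with 5 of 29 tested probes called lower, none called higher and a median of -0.32. Nectin 1 (listed as PVRL1), an immunoglobulin-like adhesion molecule of adherens junctions, was lower at 2 of its 3 probes, by -1.11 and -0.90 (limma adjusted p = 0.010 and 0.026). Its probe at base 4504 read -1.86, -1.84 and -1.95 in cells alone and -2.39, -3.01 and -2.96 in mixed culture, without overlap. Its remaining probe, at base 368 and well above background on 2 of 3 mixed arrays, gave -0.43 (95% interval -1.42 to 0.55). LMO7, which binds the nectin partner afadin, was lower at both probes, by -0.87 and -1.04 (limma adjusted p = 0.019 and 0.032). Under the normexp correction the called nectin 1 probes gave -0.45 and -0.55 and the LMO7 probe at base 4267 gave -0.44 in place of -1.04, all still called. The LMO7 probe at base 5505 read 3.05, 3.18 and 3.26 against 2.01, 2.46 and 2.39. CTNNAL1 (α-catulin, related to α-catenin) was called at 1 of 3 probes, at -0.37 (limma adjusted p = 0.049), a call not made with the replicate block (adjusted p = 0.062).

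Of the other cadherins, CDH17 (LI-cadherin) was the only gene called, 1 of 7 tested probes, against 11.2% called over all tested probes. It read 1.86, 1.79 and 1.86 in cells alone and 1.55, 1.36 and 1.46 in mixed culture, a difference of -0.38 ± 0.077 (SE, limma adjusted p = 0.032). Of the 18 probes on this list, 9 were not well above background on any array.

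Desmosome components had 2 probes called higher and 1 lower of 18 tested, with a median of 0.05. Over all tested probes 5.5% were called higher and 5.73% lower. Desmocollin 3 (DSC3), a desmosomal cadherin best known from stratified epithelia, read 1.21, 1.41 and 1.45 in cells alone and 0.81, 0.84 and 0.71 in mixed culture, a difference of -0.57 (SE 0.090, limma adjusted p = 0.020). The plaque-related proteins PKP4 and EVPL (envoplakin) were higher. PKP4 was called at 1 of 4 probes, at 0.50 (limma adjusted p = 0.024), and its other probes gave 0.15 to 0.35, the largest of which was called with the replicate block. EVPL rose from -1.06, -1.15 and -1.19 to -0.61, -0.77 and -0.69, a difference of 0.44 (limma adjusted p = 0.024). With spike-in scaling neither was called, at 0.34 for PKP4 and 0.28 for EVPL. The partners of desmoplakin in simple epithelia gave values close to 0. Desmoglein 2 (DSG2) differed by -0.07 (95% interval -0.24 to 0.10), plakophilin 2 (PKP2) by -0.03 (-0.28 to 0.22), and desmocollin 2 (DSC2) by -0.06 to -0.10 at its 3 probes, whose intervals reached from -0.35 to 0.14.

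**Figure D4:**
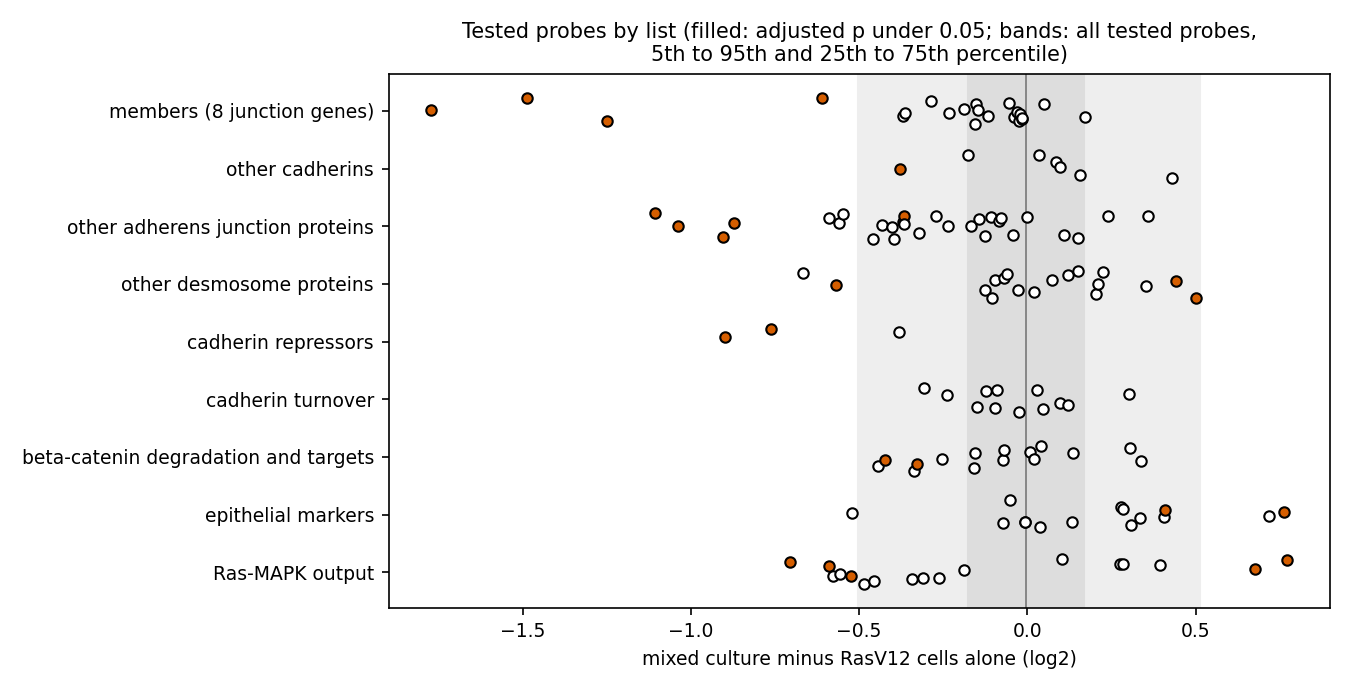
Difference between mixed culture and RasV12 cells alone (log2, x axis) for every tested probe of the gene lists drawn (rows, with points spread vertically only to separate them). The kidney tubule, fibroblast, endothelial and leukocyte lists are not drawn. Filled points have an adjusted p under 0.05, and the grey bands hold the 5th to 95th and 25th to 75th percentiles of all 26528 tested probes. The CDH2 probes at bases 206 and 3941, at -1.49 and -1.25, lie left of every other point but that of CDH2 at base 1924, which is drawn at its measured value although only a bound holds there.

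The transcription factors known to repress CDH1 gave 3 tested probes, of which 2 were called and both were lower. Over all tested probes 11.2% were called, 5.73% lower, and 3 probes are too few to give a result for the list. SNAI2 (Slug) read 2.16, 2.26 and 2.30 in cells alone and 1.53, 1.17 and 1.33 in mixed culture, without overlap. Its difference was -0.90 ± 0.11 (SE, n = 3 per group, limma adjusted p = 0.014). TWIST2 read -2.88, -2.90 and -2.97 against -3.76, -3.57 and -3.72, a difference of -0.76 ± 0.080 (SE, limma adjusted p = 0.013) that was -0.32 under the normexp correction, still called. SNAI1 (Snail) gave -0.38 with an SE of 0.26 (limma adjusted p = 0.36). Its values for cells alone, -3.15, -2.18 and -2.31, enclosed those of mixed culture. ZEB2 was not well above background on any array at its probe, ZEB1 on none at 2 of its 3 probes and on 2 arrays of cells alone at the other one, and TWIST1 had no probe under its symbol. The CDH1 probes gave -0.37 to -0.16 without a call, and a link between these factors and CDH1 was not tested.

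Genes that act on cadherin after its synthesis, by shedding, internalisation or recycling, had 12 tested probes and none was called, with 1 probe higher and 3 lower without overlap and a median of -0.06. Over all tested probes 17.8% were higher and 19.4% lower without overlap. Among the proteins that degrade β-catenin and the known β-catenin/TCF targets, GSK3B was the only gene called. This kinase marks β-catenin for degradation, and 2 of its 3 probes, which overlap, were lower, by -0.42 and -0.33 (limma adjusted p = 0.026 and 0.035), the second not called with the replicate block (adjusted p = 0.053). The median over all 15 tested probes of that list was -0.07, with 2 called, against 11.2% over all tested probes. Most of the 15 were of degradation genes. Of the targets, NOTUM gave -0.34, RNF43 -0.44 and ZNRF3 0.34, none called. LEF1, LGR5 and NKD1 were not well above background on any array, DKK1 was not tested, and AXIN2, TCF7 and SP5 had no probe under their symbols.

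The sorted cells were checked against markers. Of 12 epithelial genes, 10 had tested probes, 15 in all, and the tight junction genes CLDN3 and OCLN were called higher, CLDN3 by 0.76 (limma adjusted p = 0.014) and OCLN by 0.41 at 1 of 2 probes (limma adjusted p = 0.025). These were 2 of the 15 probes, against 11.2% called over all tested probes. The list's other claudins went both ways without a call, CLDN4 at 0.72 without overlap and CLDN7 at -0.52 with overlap. The list had a median difference of 0.28, and its signals summed over probes, in units of each array's 75th percentile, were 789 to 951 in cells alone and 838 to 964 in mixed culture. EPCAM gave -0.05 to -0.01 at its 3 probes. The fibroblast, endothelial and leukocyte lists had 9, 4 and 3 tested probes and no call, with summed signals of at most 2.03, 7.55 and 0.53 on any array. The leukocyte genes CD14 and CD79A and the endothelial genes KDR, VWF and PECAM1 (1 of 5 probes) were well above background on all arrays. So were the fibroblast genes COL1A2 (5 of 6 probes), PDGFRB (2 of 3), COL1A1 (1 of 4) and LUM (1 of 2). The leukocyte gene CD3E was so on 2 arrays of cells alone and 3 mixed arrays. The leukocyte genes PTPRC and LYZ, the endothelial genes TEK and ESAM, the fibroblast genes COL3A1 and PDGFRA, and CDH5 of the other cadherins were so on none. Kidney tubule markers were mostly dim, with EMX2 lower by -1.13 (limma adjusted p = 0.016, on 1 of 3 mixed arrays well above background, and -0.24 under the normexp correction) and AQP2 higher by 0.36 (limma adjusted p = 0.025) at 1 of 3 probes. The other AQP2 probes were not well above background on any array. With spike-in scaling OCLN gave 0.25 and AQP2 0.20, neither called.

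Genes that rise with Ras-MAPK signalling are taken here to stand for the RasV12 cells as against normal MDCK cells. No sample held normal MDCK cells alone, so how well they separate these cells was not tested. Over all tested probes 5.73% were called lower and 5.5% higher. Of the 17 tested probes of this list, 3 were called lower and 2 higher, with a median of -0.31. The lower ones were of EPHA2 (-0.71), CCND1 (-0.59, not called with the replicate block, adjusted p = 0.063) and FOSL1 (-0.52), and both higher ones were of EGR1 (0.67 and 0.77). The summed signal was 200 to 205 in cells alone and 166 to 188 in mixed culture, lower on every mixed array. Whether normal MDCK cells among the sorted mixed cells had a part in any junction result was not tested.

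**Figure D5:**
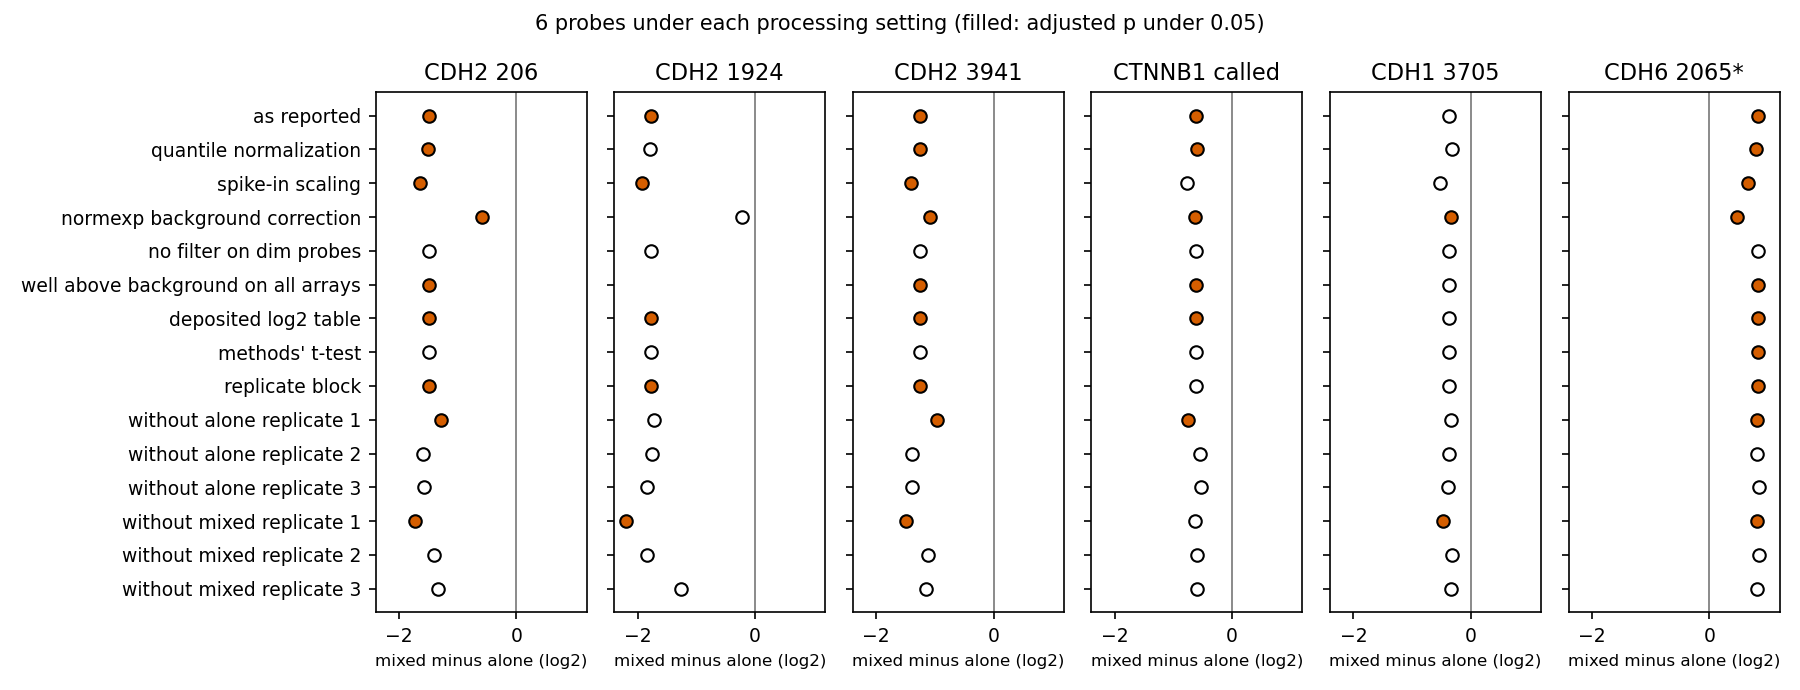
Difference between mixed culture and RasV12 cells alone (log2, x axis) for 6 probes under the reported processing and under each of 14 alternatives (rows). Filled points have an adjusted p under 0.05. The signs are the same in every row that holds a value for these 6 probes (the CDH2 probe at base 1924 was not well above background on all arrays and has none in that row), and none of the 6 is called without a filter on dim probes or without cells alone replicate 2 or 3 or mixed replicate 2 or 3. Over all tested probes those fits called 12 without the filter and 7 to 24 without those arrays.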

How the data were processed

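The authors deposited, for each of the 6 arrays, the output of Agilent Feature Extraction (version 10.10.1.1, protocol GE1_1010_Sep10) with an intensity per spot, namely a processed signal, a mean signal and a local background, and a table of log2 values that differs from the log2 processed signal by a constant close to each array's 75th percentile. The normalization is not given in the sources used here.

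Outlier-flagged spots were dropped and the spots of a probe averaged. Log2 values minus the array's 75th percentile were compared between groups with lmFit and eBayes (limma 3.58.1, R 4.3.3), two-sided, over every probe that all 3 arrays of 1 or both groups read well above background. P-values were adjusted by Benjamini and Hochberg's method, and an adjusted p under 0.05 was called. The labels do not say that samples were separate cultures, so p-values measure the spread between these samples, and their number limits the precision. Probes were assigned to genes by the array's own gene names, and positions are those of the array files. Slide was not used as a block because each slide held 1 group.

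After the group means were removed, arrays with the same replicate number correlated at 0.35, 0.16 and 0.30 over the tested probes, each above 0.1. The numbers were therefore taken to pair the samples, although cells alone replicate 2 correlated at 0.24 with mixed replicate 3. The fit without the block is the one reported, since the study's methods use an unpaired test.

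Named are the members at every probe, up to 5 genes with a called probe per other list, and SNAI1, SNAI2, ZEB1, ZEB2, TWIST1, DSG2, DSC2 and PKP2. Genes mentioned besides these, to show the spread of a list, are outside the counts of named probes below. The members and lists were chosen with earlier results of these data known. The fit was tested on simulated data. The sequence and position of 1 CTNNB1 probe are not reported here. Python 3.11.15 with pandas 2.3.3, numpy 2.4.6 and matplotlib 3.10.9 was used for tables and plots.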

Additional observations from a re-analysis of the deposited data

How the results depend on the processing

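Over all tested probes 2977 were called, 1458 higher and 1519 lower in mixed culture. Scaling to the spike-in probes called 995, of which 69.7% were lower against 51.0% as reported, and it shifted all differences by -0.16. The methods' t-test with Benjamini-Hochberg adjustment called 828 and omitting the filter on dim probes called 12. Leaving out 1 array called from 7 (without cells alone replicate 3) to 7334 (without cells alone replicate 1). Of the member probes 4 were called. The methods' t-test called 0 of 22, with 7 at an unadjusted p under 0.05, all lower. Over all tested probes that count was 7313 of 26528, 3880 of them lower. Omitting the filter called 0 of 23, with 8 at an unadjusted p under 0.05, all lower. Over all probes that count was 7819 of 43591, 3984 of them lower. Leaving out 1 array called 0 to 6 of the member probes. It was 0 of 22 without cells alone replicate 2 or 3 or mixed replicate 2 or 3, with 6 to 7 at an unadjusted p under 0.05, all lower. Over all tested probes those 4 fits called only 7 to 24. At an unadjusted p under 0.05 they gave from 5810 of 26579 to 6109 of 26596, with 2905 to 3183 lower. Of the other junction probes 9 were called, against 4 with spike-in scaling, 15 with the normexp correction, 1 with the methods' t-test, 0 without the filter (23 of 77 at an unadjusted p under 0.05) and 0 to 18 without 1 array. Quantile normalization, probes well above background on all arrays and the deposited table gave counts within 1.5 times those reported for all 3. So did the replicate block, which called 3 member probes and 10 other junction probes and, of the named probes, changed no call other than those given beside their values. Over the named probes and 14 alternatives, 614 values kept their direction and their side of the threshold, 181 lost a call, 16 gained one and 26 changed sign. The sign changes were all of values without a call. JUP gave 0.024 at base 1065 and 0.0039 at base 2487 with normexp, 0.047 at base 3038 with quantile normalization and -0.11 at base 3046 with spike-in scaling. DSG2 gave 0.0012 with normexp and PKP4 at base 1455 gave -0.011 with spike-in scaling. Without 1 array the JUP probes ran from -0.094 to 0.037 (base 268), -0.21 to 0.085 (1065), -0.22 to 0.077 (1345), -0.21 to 0.11 (2487), -0.12 to 0.082 (3038) and -0.044 to 0.13 (3046), PKP2 from -0.12 to 0.023 and NECTIN1 at base 368 from -0.72 to 0.022. The cause of these changes was not tested. A slide block could not be fitted. Dim probes limit the CDH2 reading at base 1924, for which only a bound holds.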
